A study of Mus musculus with 18 samples.

Results

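The first 3 hours after hepatocyte growth factor (HGF) was added to hepatocytes already exposed to interleukin-6 (IL-6) are described here for 6 of the 18 arrays of the series. The 3 arrays at 5, 6 and 7 h, with IL-6 and HGF, were chosen by stimulus and time and set against the 3 arrays at 2, 3 and 4 h, with IL-6 before HGF. Control arrays at 4 and 8 h served as a check on drift, although the second lies after the last of these arrays with HGF. All arrays held RNA of primary hepatocytes of male C57BL/6N mice aged 8 to 12 weeks, prepared from 1 animal or from a pool of up to 3 and grown below confluence on collagen I. The cells spent 24 h in serum-free medium with dexamethasone and 4 h in medium without it. Recombinant human IL-6 was then given at 40 ng/ml from 0 h, and recombinant mouse HGF at 40 ng/ml from 4 h. The series addressed the course of transcription in hepatocytes primed with IL-6 and then given HGF.

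With 1 array per time, the 3 hours on each side stand in for replicates and carry change over time within them. Whether dishes came from separate animals is not stated in any source, so the p-values rest on the spread between dishes and hours alone. Neither HGF by itself nor IL-6 by itself beyond 4 h was analysed here. The addition of HGF, a longer exposure to IL-6 and the passing of time therefore cannot be told apart within the 6 arrays.

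HGF binds the receptor tyrosine kinase MET and activates the RAS-ERK and PI3K-AKT pathways. In liver it is known as a factor for growth, motility and survival of hepatocytes during regeneration. ERK activity switches on immediate early genes within minutes to hours, among them FOS and EGR transcription factors, and with them phosphatases and other proteins that shut the pathway down again. IL-6 acts through gp130 and STAT3 and drives the hepatic acute-phase response.

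Values are log2 signals, so a difference of 1 is a doubling. Medians of the 18 arrays ran from 5.47 to 5.57, and arrays 5 to 7 h correlated with the other arrays at a mean r of 0.993 to 0.994 across probe sets. Hepatocyte genes were bright: Alb (albumin) and Ttr (transthyretin) had mean signals of 14.82 and 14.44 on the IL-6 arrays, and Krt7, a bile duct keratin, 4.52. Krt19, Epcam and Sox9, further bile duct markers, were brighter than Krt7: over the 18 arrays they averaged 7.03, 6.58 and 8.56, against 4.38. The 10 hepatocyte markers had a mean 0.23 to 0.36 below the IL-6 arrays at 5, 6 and 7 h. The 19 markers of Kupffer cells, the resident macrophages, averaged 0.22 above the IL-6 arrays at 5 h, 0.08 below at 6 h and 0.05 below at 7 h. The 15 endothelial markers averaged 0.13 above at 5 h, 0.09 below at 6 h and 0.17 below at 7 h, and the 15 stellate cell markers stayed between 0.05 below and 0.05 above. In such bulk samples, fewer cells of a type and less RNA per cell cannot be told apart. The array at 6 h stood apart in nuclear RNAs: Malat1 read 9.16 there against 11.24 to 11.65 on the IL-6 arrays, and Neat1 7.97 against 10.18 to 10.34. The controls at 4 and 8 h were also low, at 9.62 and 9.62 for Malat1 and 8.12 and 8.49 for Neat1. The part of this in the results was not tested.

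Of 18193 genes, 10 rose and 13 fell between the IL-6 arrays and the IL-6 plus HGF arrays (limma, Benjamini-Hochberg adjusted p under 0.05). These are 0.055% and 0.0715% of the genes tested. The genes that rose included the cytokine Lif, the protease inhibitor Timp1 and the homeobox genes Irx3 and Irx5. Those that fell were mostly enzymes of hepatocyte metabolism, with Arg1 of the urea cycle lowest. In all 23 genes the 3 arrays after HGF lay outside the range of the 3 before it. Such separation alone was common, in 9.56% of genes upward and 8.28% downward, and 2166 genes had an unadjusted p under 0.05. No gene rose or fell by this test when the array at 3, 6 or 7 h was left out, which leaves 2 arrays on a side, and quantile normalization left 0 rises and 2 falls. Without the array at 2 or 5 h, 0 of the 10 rises were called again.

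**Figure D1:**
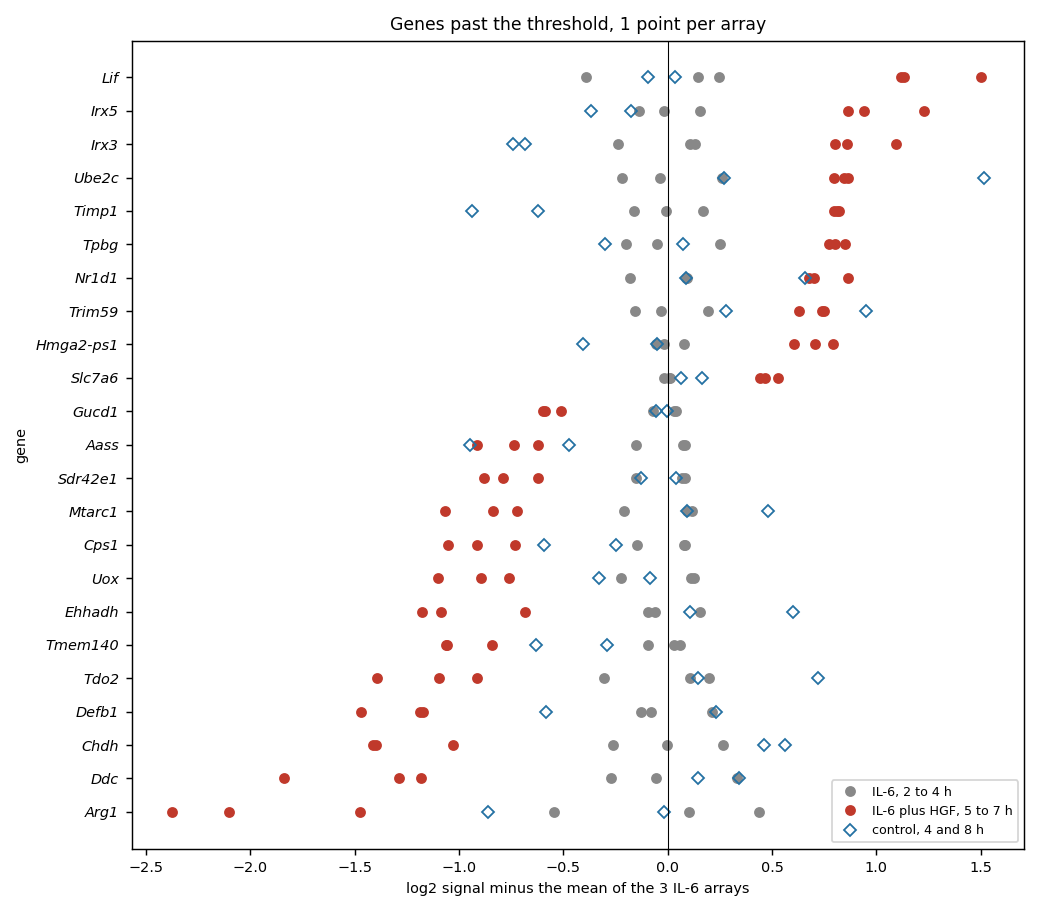
Log2 signal of the 23 genes past the threshold, as the difference from the mean of the 3 IL-6 arrays at 2 to 4 h (grey circles), for the IL-6 plus HGF arrays at 5 to 7 h (red circles) and the controls at 4 and 8 h (open diamonds), 1 point per array. Red and grey points do not overlap in any gene, and for Ube2c the control at 8 h lies above every other point.

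Lif encodes leukemia inhibitory factor, a secreted cytokine that signals through gp130 as IL-6 does. Its signal was 6.59, 5.96 and 6.50 at 2, 3 and 4 h and 7.85, 7.47 and 7.48 at 5, 6 and 7 h. All 3 arrays after HGF were above all before it, and above the controls at 6.25 and 6.38. The difference was 1.25 ± 0.17 (SE, 3 arrays a side; adjusted p = 0.0451, limma), or 2.38-fold. A dimmer Lif probe set gave 0.30. Lif stayed high afterwards, at 7.94 at 10 h and 7.61 at 24 h.

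Irx3 and Irx5 encode homeobox transcription factors of the same Iroquois gene cluster. Irx5 read 4.85, 4.97 and 5.14 before HGF and 5.85, 6.22 and 5.93 after it, a difference of 1.01 ± 0.11 (SE; adjusted p = 0.0364, limma). Irx3 read 7.91, 7.57 and 7.94 before and 8.61, 8.90 and 8.67 after, a difference of 0.92 ± 0.12 (SE; adjusted p = 0.0451, limma). Both genes were highest at 6 h among the 6 arrays. For Irx3 the IL-6 arrays were already above the controls of 7.06 and 7.12, whereas Irx5 on the IL-6 arrays at 4.85 to 5.14 lay near the controls of 4.81 and 4.62.

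Timp1, an inhibitor of matrix metalloproteinases and an IL-6 target in liver, rose from 8.82, 8.67 and 9.00 to 9.65, 9.63 and 9.64. The 3 values after HGF lie close together and above both controls, 7.89 and 8.21. Its difference was 0.81 ± 0.09 (SE; adjusted p = 0.0364, limma). Tpbg, the membrane glycoprotein 5T4, rose by 0.81 from a dim signal of 3.94, 4.09 and 4.39 to 4.99, 4.91 and 4.94, and its other probe sets gave 0.80 and 0.57. Slc7a6, a transporter of amino acids, rose by 0.48, from 7.01 to 7.04 on the IL-6 arrays to 7.47 to 7.56 after HGF. Its second probe set gave 0.51. The pseudogene Hmga2-ps1 rose by 0.70, but its sequence resembles that of Hmga2, whose own brightest probe set differed by 0.42 (adjusted p = 0.364, limma), and the probe set cannot tell these transcripts apart with certainty.

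Beside the other 3 rises stand control changes of a like size or larger. Ube2c, a ubiquitin-conjugating enzyme of mitosis, read 6.59, 6.41 and 6.89 before and 7.48, 7.43 and 7.49 after HGF, yet the control moved from 6.90 at 4 h to 8.14 at 8 h. Trim59 rose by 0.71 against a control difference of 0.67 from 4 to 8 h, and Nr1d1, the clock repressor REV-ERB alpha, by 0.75 against 0.57. A second Trim59 probe set of a similar level gave 0.36. For Ube2c and Trim59 the control at 8 h was above all 3 arrays with HGF. Against both controls as the baseline, Ube2c differed by -0.056 and Trim59 by 0.091.

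Arg1, which releases urea from arginine, showed the deepest fall. It read 10.01, 10.34 and 9.36 at 2, 3 and 4 h and 7.80, 8.43 and 7.53 at 5, 6 and 7 h, while the controls stood at 9.04 and 9.89. The difference was -1.99 ± 0.27 (SE; adjusted p = 0.0451, limma), a 3.96-fold fall. The decrease ran on to 6.83 at 8 h and 5.72 at 24 h, but the control also fell late, from 9.35 at 12 h to 6.36 at 24 h. The IL-6 array at 4 h, before HGF, was already the lowest of its 3. This held for 11 of the 13 genes that fell, all but Defb1 and Ehhadh. Among the 10 that rose, the array at 4 h was the highest of the 3 in 5: Irx3, Irx5, Timp1, Tpbg and Ube2c.

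Cps1, the entry enzyme of the urea cycle, fell from 11.03, 11.03 and 10.80 to 10.22, 10.03 and 9.90, by 0.91 ± 0.10 on the log2 scale (SE; adjusted p = 0.0364, limma). With these 2 genes of the urea cycle, 3 genes of amino acid breakdown fell. Ddc, the decarboxylase that makes dopamine and serotonin from their precursors, read 8.98, 9.37 and 8.77 before and 7.76, 7.86 and 7.20 after HGF, a difference of -1.44, while a second, dim Ddc probe set gave 0.24. Tdo2, which opens the indole ring of tryptophan, read 8.81, 8.90 and 8.40 before and 7.60, 7.78 and 7.31 after. Its difference was -1.13 (-0.35 and -0.67 in 2 dimmer probe sets), while the control was higher at 8 h than at 4 h by 0.58. Aass, of lysine breakdown, fell by 0.76, with a control difference of -0.47, and differed by -0.047 against both controls.

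These 5 genes are among 25 measured members of a list of gluconeogenesis, urea cycle and amino acid breakdown. In 14 of the 25 the arrays after HGF lay below those before, 56.0% against 8.28% of all genes, and 0 lay above. The list's median difference was -0.41, that of all genes 0.01. By hour, the mean of the list relative to the IL-6 arrays was -0.49, -0.36 and -0.63 at 5, 6 and 7 h, while the controls at 4 and 8 h stood at -0.11 and -0.16. Before HGF the list was already in descending order, at 0.23, 0.06, 0.05 and -0.11 at 1, 2, 3 and 4 h with IL-6.

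Other falls lay in lipid, choline and purine metabolism. Chdh, choline dehydrogenase, read 7.76, 8.03 and 7.50 before HGF and 6.36, 6.74 and 6.35 after it, below controls of 8.22 and 8.33, a difference of -1.28 ± 0.15 (SE; adjusted p = 0.0364, limma). Ehhadh, a bifunctional enzyme of peroxisomal beta-oxidation and a classical PPAR-alpha target, read 9.00, 9.25 and 9.03 before and 7.91, 8.41 and 8.01 after. Its difference of -0.98 stands beside a control difference of -0.49 from 4 to 8 h, with controls of 9.69 and 9.20. Ehhadh was the 1 member called among 23 genes of fatty acid oxidation, whose median was -0.14. Of these genes, 11 were below without overlap and 1 above (47.8% and 4.35%, against 8.28% and 9.56% of all genes). Uox, the urate oxidase that mice keep and humans have lost, fell by 0.92, from 10.95 to 11.31 on the IL-6 arrays to 10.08 to 10.42.

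Defb1, a secreted antimicrobial defensin, and Tmem140, a membrane protein, had the smallest adjusted p-values of the comparison, 0.0185 each (limma). Tmem140 read 8.56, 8.59 and 8.44 before and 7.69, 7.47 and 7.47 after HGF, below controls of 8.24 and 7.90. Defb1 read 8.04, 7.70 and 7.75 before and 6.66, 6.64 and 6.36 after. The Defb1 difference of -1.28 stands beside a control difference of -0.82 from 4 to 8 h, and a second Defb1 probe set of a similar level gave -0.81. Second probe sets of Tmem140 and Mtarc1, both dimmer, gave -0.53 and -0.11. Mtarc1, a molybdenum enzyme of mitochondria, fell by 0.88, Sdr42e1, a short-chain dehydrogenase, by 0.76 and Gucd1 by 0.56.

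**Figure D2:**
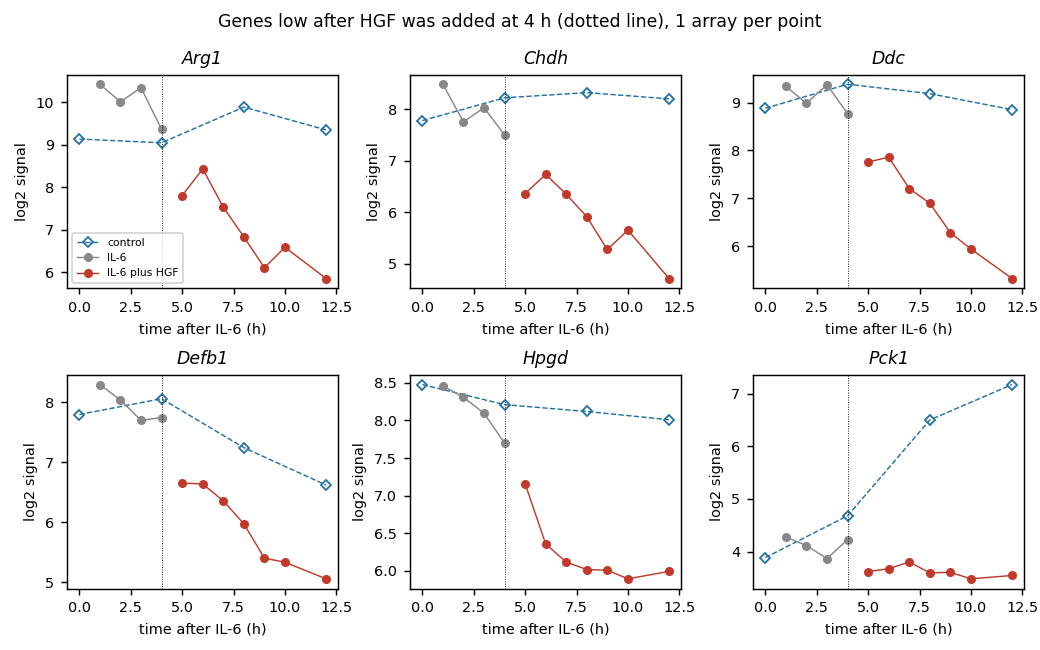
Log2 signal over time of Arg1, Chdh, Ddc, Defb1, Hpgd and Pck1 in control (open diamonds, 0 to 12 h), IL-6 (grey, 1 to 4 h) and IL-6 plus HGF (red, 5 to 12 h), 1 array per point, with the dotted line at the addition of HGF. The red points lie below the grey ones in each panel, and for Pck1 the control climbs from 4.68 at 4 h to 6.50 at 8 h.

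The control check asked whether the change exceeded the control's own change from 4 to 8 h. This control pair spans more time than lies between the middle hours of the groups compared, 3 and 6 h. Its whole change was subtracted, so for a gene that drifts steadily the subtraction is too large. Of the 23 genes, 14 moved in the same direction as the control, and in 6 the control moved by at least 50% as much. After subtraction of the control change, 22 kept their direction, and Ube2c turned to -0.41. Of the 10 rises, 8 were above both controls on all 3 arrays, and of the 13 falls 12 were below both; the exceptions were Ube2c, Trim59 and Aass. Only 1 gene, 0.0055% of those tested, passed the test of the difference between both changes (limma over 8 arrays). An unadjusted p under 0.05 was found in 665 of 18193 genes, a smaller share than the 0.05 that this threshold would give without any change.

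The 1 gene that passed was Pck1, the rate-limiting enzyme of gluconeogenesis and a FOXO1 target that insulin represses. Its signal was 4.11, 3.87 and 4.23 with IL-6 and 3.62, 3.67 and 3.80 with HGF added, a dim range in which the difference was -0.37 (adjusted p = 0.209, limma). The control stood at 4.68 at 4 h and 6.50 at 8 h. The change beyond the control was -2.19 ± 0.21 (SE; adjusted p = 0.0471, limma). It rests on 1 control array at each time, and the result did not pass when 5 of the 6 arrays were left out in turn, under quantile normalization or as a mean of its probe sets, where it was -0.99.

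Arrdc3, an arrestin-domain protein and also a FOXO1 target, showed a like set of values without passing. Its controls were 6.39 and 7.78, its IL-6 arrays 6.65, 6.81 and 6.21, and its HGF arrays 5.10, 5.69 and 5.79. The change beyond control was -2.42 ± 0.40 (SE; adjusted p = 0.719, limma). Dbp, a clock output factor, read 4.67 and 6.50 in the controls, 4.51 to 4.89 with IL-6 and 4.42 to 5.05 after HGF. Of 23 insulin and FOXO1 target genes, 4 were below without overlap after HGF and 0 above (17.4% below, against 8.28% of all genes), with a median difference of -0.05 and a median control difference of 0.13. Igfbp1, a further FOXO1 target, read 12.90, 13.05 and 13.19 before and 13.04, 13.59 and 13.53 after HGF.

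**Figure D3:**
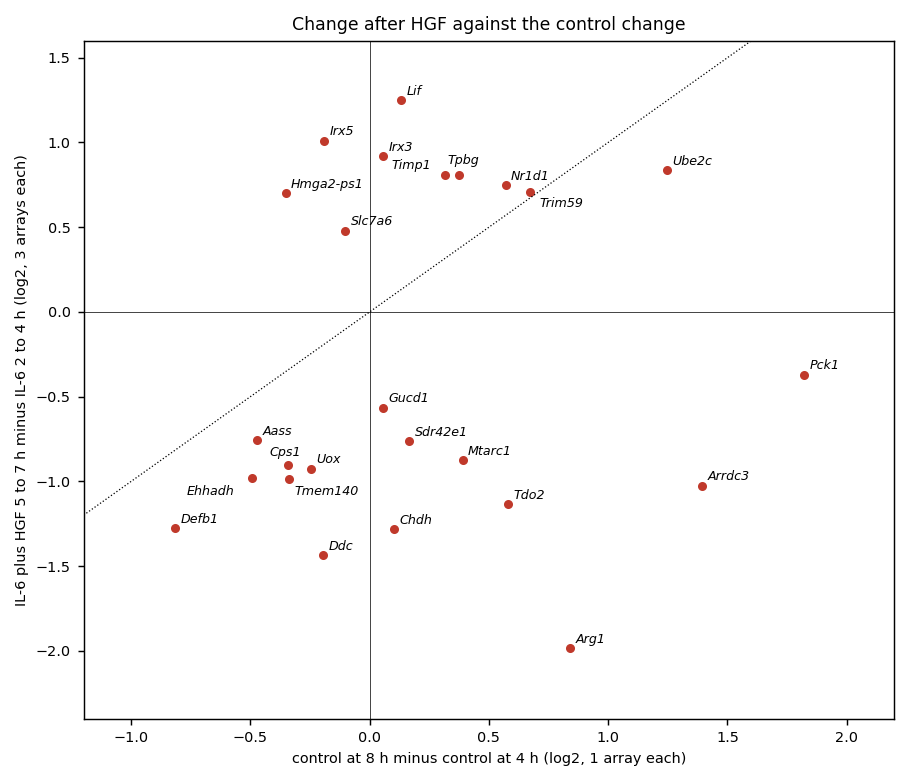
Difference between IL-6 plus HGF (5 to 7 h) and IL-6 (2 to 4 h), 3 arrays each, against the difference between control at 8 h and at 4 h, 1 array each, both in log2, for the 23 genes past the threshold and for Pck1 and Arrdc3. The dotted line marks equal change; Trim59 lies near it, at 0.71 against 0.67, and Pck1 lies furthest to the right, at 1.82.

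A mean over 3 hours hides changes that last 1 hour, so each array was also read alone. A gene was counted at an hour if it lay at least 1 log2 unit beyond the nearest of the 3 IL-6 arrays. With 1 array an hour there is no test. At 5 h, 1 h after HGF, 8 genes were above and 8 below (0.044% each). At 6 h there were 3 above (0.0165%) and 10 below (0.055%), and at 7 h 3 above (0.0165%) and 14 below (0.077%). No gene was above at more than 1 hour, whereas Arg1, Chdh, Ddc, Defb1 and Hpgd were below at 2 or 3 of the hours. Later counts were 3 above and 30 below at 8 h, 21 and 54 at 9 h, 96 and 132 at 10 h, 65 and 156 at 12 h, and 505 and 347 at 24 h. The counts at every hour are against the IL-6 arrays alone, and the part of the controls' own change in them was not tested. The array at 10 h stood apart, with a mean correlation of 0.987 with the others against 0.992 to 0.994 at 5 to 9 h and 12 h, and with Malat1 at 12.68; the part of this in its counts was not tested.

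The genes above at 5 h were led by Egr2, Hbegf, Egr1, Fos, Lif and Dusp5. Egr2, a zinc finger transcription factor, read 3.83, 4.06 and 3.82 with IL-6, then 5.92 at 5 h, 4.89 at 6 h and 4.41 at 7 h. Egr1, its relative, read 11.04, 11.08 and 11.37, then 12.67, 11.61 and 11.84. Fos, the AP-1 subunit, read 8.00, 7.82 and 7.55, then 9.28, 8.27 and 8.23. In each of the 3 the value at 5 h was the highest of the 6 arrays, and in none did the mean difference pass the test (adjusted p = 0.193, 0.201 and 0.267, limma).

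Hbegf, an EGF receptor ligand shed from the cell surface, read 8.43, 7.74 and 8.11 before HGF, then 9.88, 8.88 and 8.41. Dusp5, a nuclear phosphatase of ERK, read 9.23, 8.62 and 8.80, then 10.39, 9.77 and 9.07. Both were back within the IL-6 range at 7 h. Of these genes, Egr1, Egr2, Hbegf and Dusp5 were also higher on the IL-6 array at 1 h than on those at 2 to 4 h: Egr1 read 12.29 and Dusp5 9.78 there. With the IL-6 array at 1 h in the baseline, 3 genes in place of 8 were above at 5 h. Kupffer cell markers averaged 0.22 above the IL-6 arrays at 5 h, and their part in these values was not tested.

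**Figure D4:**
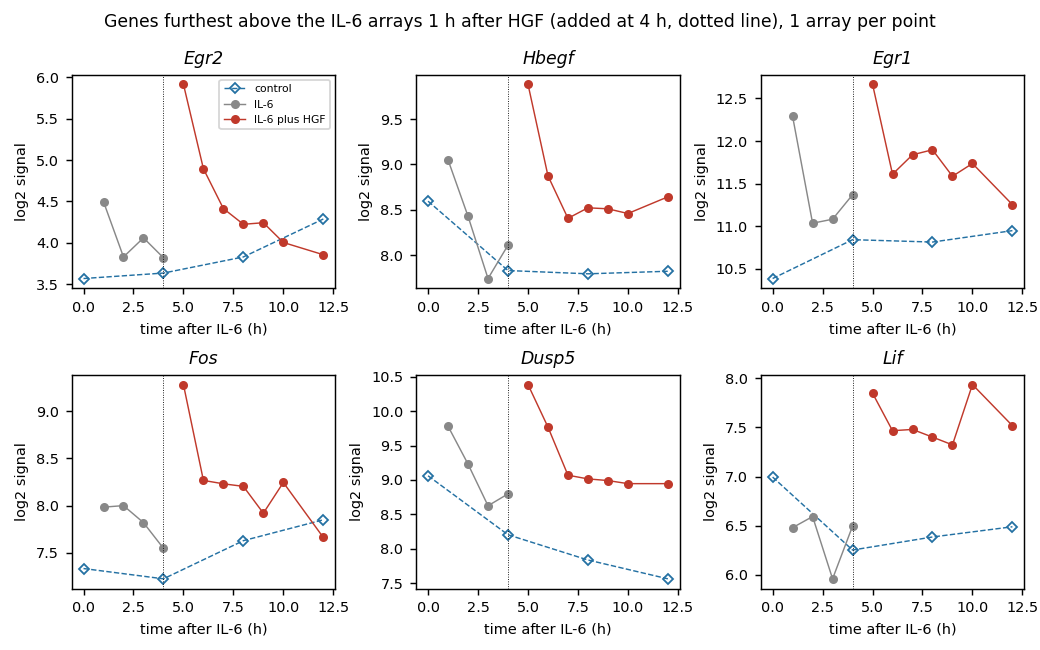
Log2 signal over time of Egr2, Hbegf, Egr1, Fos, Dusp5 and Lif in control (open diamonds), IL-6 (grey) and IL-6 plus HGF (red), 1 array per point, with the dotted line at the addition of HGF. Egr2, Hbegf, Egr1, Fos and Dusp5 are highest at 5 h and lower by 7 h, while Lif stays between 7.32 and 7.94 from 6 to 12 h.

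Promoter sequences are shown for those genes above at 5 h or in the 6-array comparison whose 250 bases before the RefSeq start (GRCm38.p6) hold an AP-1 motif (TGANTCA), a cyclic AMP response element (TGACGTCA) or the core of a serum response element, on either strand. Motifs, with EGR matches (GCGNGGGCG) included, are in capitals. Of the 6 genes named at 5 h, 4 had an entry; 2 of these 4, Egr2 and Dusp5, held the serum response element core and 1, Lif, an AP-1 motif. Among 14452 measured genes with an entry, 1.43% held the serum response element core, 6.70% the AP-1 motif, 2.50% the cyclic AMP response element, 8.59% the EGR motif and 7.42% a STAT motif (TTCNNNGAA).
Egr2 (chr10:67537316-67537565, plus strand): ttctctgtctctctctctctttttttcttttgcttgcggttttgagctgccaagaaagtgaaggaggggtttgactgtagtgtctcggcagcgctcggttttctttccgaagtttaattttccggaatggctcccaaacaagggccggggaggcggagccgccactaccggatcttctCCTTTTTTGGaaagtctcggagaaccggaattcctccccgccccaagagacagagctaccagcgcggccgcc
Dusp5 (chr19:53528895-53529144, plus strand): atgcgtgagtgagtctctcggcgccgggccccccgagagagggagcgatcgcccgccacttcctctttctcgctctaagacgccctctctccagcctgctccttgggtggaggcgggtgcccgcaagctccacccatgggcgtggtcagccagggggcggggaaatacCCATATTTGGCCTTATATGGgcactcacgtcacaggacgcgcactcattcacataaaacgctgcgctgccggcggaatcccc
Lif (chr11:4257318-4257567, plus strand): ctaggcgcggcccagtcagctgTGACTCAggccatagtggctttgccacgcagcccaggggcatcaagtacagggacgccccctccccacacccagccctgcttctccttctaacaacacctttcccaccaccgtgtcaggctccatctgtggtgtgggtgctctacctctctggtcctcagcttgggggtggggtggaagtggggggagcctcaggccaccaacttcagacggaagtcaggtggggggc
Tpbg (chr9:85842130-85842379, plus strand): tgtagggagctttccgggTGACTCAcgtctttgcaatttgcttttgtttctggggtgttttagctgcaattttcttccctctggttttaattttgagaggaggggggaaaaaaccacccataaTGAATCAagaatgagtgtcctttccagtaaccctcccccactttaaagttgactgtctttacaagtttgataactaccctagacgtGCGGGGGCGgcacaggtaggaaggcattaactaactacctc
The serum response element core lies 72 bases before the first printed Egr2 start, and 3 of the 5 Egr2 starts listed hold a second form of it, CCATATATGG. Dusp5 holds a pair of adjoining cores, 82 and 72 bases before the start. The AP-1 motif of Lif lies 228 bases before the start, and Tpbg holds AP-1 motifs 232 and 127 bases and an EGR motif 41 bases before 1 of its 2 starts. Of the 10 genes that rose, 8 had an entry, and 2 of these held the AP-1 motif, 3 the EGR motif and 0 the STAT motif. Of the 13 that fell, 9 had an entry: Ddc held the AP-1 motif, Chdh and Gucd1 the STAT motif. A match is a description of these letters and not a binding site.

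Among 34 immediate early transcription factors 0 passed the test. In 7 the groups did not overlap upward and in 2 downward (20.6% and 5.88%, against 9.56% and 8.28% of all genes), with a median difference of 0.09. Their mean relative to the IL-6 arrays was 0.44, 0.06 and -0.10 at 5, 6 and 7 h, so of these 3 hours the list was high at 5 h only. On the IL-6 array at 1 h, before HGF, it was also above, at 0.21. Other lists were above at 5 h too, such as p53 and stress checkpoint at 0.30 and DNA replication at 0.23. Some were below, such as interferon response at -0.22. The part of the array at 5 h itself in these values was not tested. Jun, the partner of FOS in AP-1, lay below: 10.83, 10.56 and 10.34 before HGF and 10.03, 10.06 and 9.94 after, near controls of 10.28 and 10.18. Ier3, an early response gene of survival signalling, read 11.96, 11.71 and 11.70 before and 12.21, 12.14 and 12.24 after. Atf3, a stress-induced factor, read 9.42, 8.91 and 9.37 before HGF and 10.00, 8.40 and 7.95 after. On the IL-6 array at 1 h Atf3 read 10.58, above its value at 5 h. Myc read 10.77 at 5 h and 10.18 at 7 h against 10.38 to 10.61 with IL-6.

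Of 25 ERK feedback genes and ETS factors 0 passed, 9 were above without overlap and 0 below (36.0% above, against 9.56% of all genes), with a median of 0.22. Their mean was 0.26, 0.24 and 0.16 at 5, 6 and 7 h, a smaller decline over these hours than that of the immediate early list. It did not fall away later, at 0.14 at 8 h, 0.215 at 12 h and 0.44 at 24 h. The difference between the lists was not tested. Dusp4, a nuclear phosphatase of ERK, read 5.98, 5.84 and 5.86 before HGF and 6.90, 6.55 and 6.28 after, with controls of 6.74 and 6.72. Dusp6, its cytoplasmic counterpart, was highest at 6 h, at 9.78 against 8.96 to 9.20 with IL-6. Spred3, an inhibitor of RAS signalling, climbed by the hour from 6.67 to 7.14 and 7.51, against 6.25 to 6.44 before, and was still 8.08 at 24 h. Spry2 read 4.74, 4.41 and 4.82 before and 4.98, 5.33 and 5.24 after, with controls of 4.99 and 5.40, the second above all 3 arrays with HGF. Spry4 values overlapped between groups, at 5.08 to 5.40 and 5.25 to 5.70.

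Of 21 genes of the MET receptor and its handling, 0 passed and 4 were above without overlap (19.0%, against 9.56% of all genes), with a median of 0.03. Met itself read 10.53, 10.56 and 10.61 before and 10.58, 10.55 and 10.40 after HGF, a difference of -0.06 ± 0.08 (SE; adjusted p = 0.832, limma). Cbl, the ubiquitin ligase that targets activated MET for breakdown, read 7.99, 8.03 and 8.12 before and 8.46, 8.49 and 8.28 after, with controls of 8.34 and 8.36. Cd44, a MET co-receptor, read 9.14, 8.88 and 9.10 before and 9.47, 9.44 and 9.79 after, above the control at 4 h of 9.21 on each array.

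In the list of 24 genes for the plasminogen system, proteases and cell invasion, 11 were above without overlap and 0 below (45.8% above, against 9.56% of all genes), with 1 call, Timp1, and a median of 0.16. Plaur, the urokinase receptor, was highest at 5 h, at 10.97, and 10.66 at 6 h, and was back within the IL-6 range of 10.26 to 10.56 at 7 h, at 10.51. Among 27 growth factors and receptors, 7 were above and 2 below without overlap (25.9% and 7.41%, against 9.56% and 8.28% of all genes). Lif was the 1 call, and the median was 0.09. Ccn2, a matricellular growth factor, read 12.84, 12.30 and 12.69 before and 13.41, 12.94 and 12.95 after. Jag1, a NOTCH ligand, followed later, with 7.52 at 5 h, 8.10 at 6 h and 8.24 at 7 h against 7.03 to 7.30 before HGF. Its controls were 7.52 and 7.88, so the values at 6 and 7 h alone lay above both.

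Of 25 IL-6 and STAT3 response genes 0 passed, 4 were above and 1 below without overlap (16% and 4.00%, against 9.56% and 8.28% of all genes), and the median was 0.02. Socs3, the feedback inhibitor of gp130 signalling, read 10.80, 10.89 and 10.69 before and 10.77, 10.59 and 10.43 after HGF, with controls of 7.12 and 7.47. Junb read 9.69, 9.63 and 9.65 before and 10.45, 10.26 and 9.86 after, and Cish 9.35, 9.21 and 9.13 before and 9.62, 9.64 and 9.44 after. Cebpd, an IL-6-induced transcription factor of acute-phase genes, lay the other way, at 11.52, 11.34 and 11.08 before and 10.28, 10.94 and 10.80 after. None of these 4 genes passed the test. Of 29 acute-phase proteins 6 were below without overlap and 0 above (20.7% below, against 8.28% of all genes), with a median of -0.06. Crp read 10.76, 10.49 and 10.16 before and 9.81, 9.73 and 9.43 after, with control values of 10.16 and 9.62.

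Genes of drug metabolism were low as a list, although none of its 30 members passed. In 22 the arrays after HGF lay below those before and in 1 above (73.3% and 3.33%, against 8.28% and 9.56% of all genes), 29 of 30 differences were negative, and the median was -0.43. The same list had a median control difference of -0.20 from 4 to 8 h. Its mean relative to the IL-6 arrays was already in descending order before HGF, at 0.26, 0.09, 0.04 and -0.13 at 1, 2, 3 and 4 h. Cyp2b10, a P450 enzyme induced through the receptor CAR, read 11.49, 11.26 and 11.06 before and 10.44, 10.19 and 9.78 after, with controls of 10.85 and 9.90. Ugt2b35, a glucuronosyltransferase, read 9.99, 10.39 and 10.10 before and 9.00, 9.46 and 8.97 after, with controls of 10.79 and 11.03. The groups of both genes are apart, and only Ugt2b35 also lay below both controls on every array. Cyp1a1, an enzyme induced through the aryl hydrocarbon receptor, was falling before HGF, from 9.22 at 1 h to 8.35, 7.25 and 6.36, and read 5.60, 5.57 and 5.04 after it.

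Bile acid genes and transporters showed 8 of 19 members below without overlap and 0 above (42.1% below, against 8.28% of all genes), a median of -0.23 and no call. Baat, which joins bile acids to taurine and glycine, was lowest at 5 h, at 6.79 against 7.89 to 8.27 before HGF, and read 7.62 and 7.20 at 6 and 7 h. Its difference was -0.85, and a second Baat probe set of a similar level gave -0.33. Slc2a2, the glucose transporter GLUT2, went down by the hour from 9.10 at 2 h to 8.63 at 4 h and 7.50 at 7 h. Of 22 liver-enriched transcription factors 5 were below and 0 above without overlap (22.7% below, against 8.28% of all genes), with a median of -0.07. Nr1i2, the xenobiotic receptor PXR, read 6.60, 6.48 and 6.30 before and 5.41, 5.83 and 5.65 after, below controls of 6.74 and 6.82. Nr1h4, the bile acid receptor FXR, read 8.58, 8.33 and 8.00 before and 7.79, 7.47 and 7.33 after. Both missed the threshold (adjusted p = 0.0560 and 0.121, limma).

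**Figure D5:**
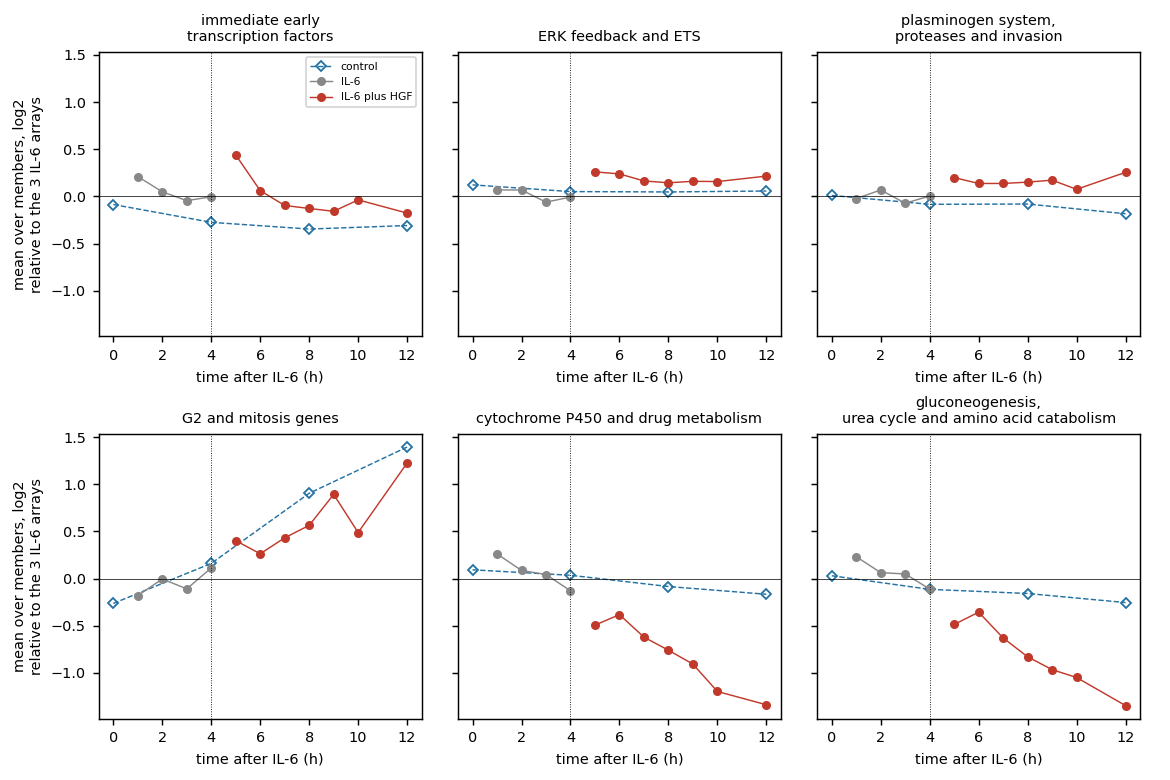
Mean log2 signal of 6 gene lists relative to the 3 IL-6 arrays at 2 to 4 h, over time in control (open diamonds), IL-6 (grey) and IL-6 plus HGF (red), 1 array per point, with the dotted line at the addition of HGF. The immediate early list peaks at 0.44 at 5 h, the P450 and amino acid lists lie at -0.62 and -0.63 at 7 h, and the mitosis list of the controls lies at 0.90 at 8 h, above that of IL-6 plus HGF at 0.56.

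Genes of mitosis were higher after HGF than before it, and the control at 8 h was higher still. Of 21 genes of G2 and mitosis all had positive differences, 13 were above without overlap (61.9%, against 9.56% of all genes), 0 passed and the median was 0.32, but the same list had a median control difference of 0.68 from 4 to 8 h. Aurkb, a kinase of chromosome segregation, read 6.05, 6.02 and 6.41 before and 6.82, 6.77 and 6.90 after HGF, with controls of 6.58 and 7.10. Its difference was 0.67, and a second Aurkb probe set of a similar level gave 0.21. Top2a, the topoisomerase of dividing cells, read 6.52, 6.34 and 6.76 before and 7.26, 7.09 and 7.15 after, with controls of 6.77 and 7.70. Of 22 genes of G1 and its exit 1 was above without overlap and 0 below, and of 23 DNA replication genes 2 and 0. These shares of 4.55% and 8.70% above do not exceed the 9.56% of all genes. Ccnd1, cyclin D1, read 8.20, 7.77 and 7.75 before and 8.01, 7.95 and 7.89 after.

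Genes of protein folding in the endoplasmic reticulum were apart upward in 7 of 24 members of a stress list and downward in 1. These are 29.2% and 4.17%, against 9.56% and 8.28% of all genes. The list had 0 calls and a median of 0.03. Herpud1, of the degradation machinery of that compartment, read 10.66, 10.56 and 10.82 before and 11.20, 11.21 and 11.19 after, above controls of 10.92 and 10.84 (adjusted p = 0.0616, limma). Among 10 cholangiocyte and progenitor markers, 2 were above and 1 below without overlap (all genes: 9.56% and 8.28%). Cldn4, a tight junction protein, read 10.50, 10.10 and 10.22 before and 10.90, 10.95 and 11.04 after, and Sox9, a progenitor factor, 8.63, 8.40 and 8.67 before and 9.37, 9.37 and 8.77 after.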

How the data were processed

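The deposited values of 18 Affymetrix arrays with 45101 probe sets were log2 signals, as read from their range of 2.10 to 15.05; how the authors summarized and normalized them is not given in the sources used here, and they were used as deposited. Of the probe sets 64 were controls and 34945 had a single gene symbol in the array annotation. Genes with several probe sets were represented by the brightest one on average, which left 18193 genes, and dim genes were kept.

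Groups came from stimulus and time in the labels. The main fit used 6 arrays, and that of the change beyond the control change 8 arrays (lmFit and eBayes of limma 3.58.1, R 4.3.3). P-values were adjusted by Benjamini and Hochberg's method across the 18193 genes, and 0.05 was the threshold. "Without overlap" means that all 3 arrays of a group lie beyond all 3 of the other. The fits were tested on simulated data that held no trend over the hours, so this test cannot show whether they tell a step from a trend. The number of arrays limits the precision. The members and gene lists were chosen with earlier results of these data known, so list counts are descriptions. Named genes were the 12 largest rises and 12 largest falls that passed, up to 4 passing members of a list or 2 with the smallest p as values, the 8 smallest p against the control change, the 6 largest gaps at each hour and direction, and 15 fixed genes; where fewer than 10 passed, the 10 smallest p. Gucd1 as a fall and Krt7, Krt19, Epcam, Alb and Ttr as markers were named after their values were seen. Alternatives were other scalings, filters, variance models, baselines and arrays left out. Promoter sequences are RefSeq's (GRCm38.p6).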

Additional observations from a re-analysis of the deposited data

Results flagged for a closer look

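Pck1 was the 1 gene for which the change after HGF differed from the control change by the test of that difference, by -2.19 in log2 units (limma, adjusted p = 0.0471). With HGF all 3 arrays read 3.62 to 3.80 and were below the IL-6 arrays at 3.87 to 4.23, while the control was higher at 8 h than at 4 h by 1.82. The groups compared held 3 arrays, too few for a search for single arrays that stand apart.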

How the results depend on the processing

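The number of genes past the threshold varied with the setting. Against 10 rises and 13 falls, quantile normalization gave 0 and 2, centring of each array on its median 20 and 27, a filter at the 40th percentile of mean signal 19 and 29, an intensity trend with robust variance 101 and 147, and IL-6 arrays from 1 to 4 h 40 and 53. The controls at 4 and 8 h as baseline, a different comparison, gave 159 and 327. A fit of 17 arrays in 6 cells gave 0 and 0, as did a step on a linear slope of time. A log2 difference of at least 1 left 2 and 5. Leaving out 1 array gave 0 to 15 rises and 0 to 25 falls, with 0 and 0 without the array at 3, 6 or 7 h, 3 and 4 without 5 h, 2 and 1 without 2 h, and 15 and 25 without 4 h. Of the 10 rises and 13 falls, 0 and 3 were called again without 5 h and 0 and 1 without 2 h. Without 4 h, 8 and 12 were called again. The cause of these differences was not tested, other than that fewer arrays or genes entered some fits. All 23 genes kept their direction in every setting that gave a value, except Ube2c, at -0.056 against the controls; on that baseline Aass and Trim59 shrank to -0.047 and 0.091. Without a call, 2 genes also turned: on the slope of time, Met stood at 0.019 and Nr1h4 at 0.0090.

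For the change beyond the control, Pck1 was the 1 gene lower. Quantile normalization and the mean of all probe sets gave 0 lower. The filter also gave 0 lower, but it removed Pck1, at percentile 19.1 of mean signal, so Pck1 was not tested there. Controls at 8 and 12 h against 0 and 4 h gave 1 higher and 6 lower. Leaving out 1 array gave 0 to 1 lower.

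With 1.5-fold as the limit for single hours, 43 genes were above and 60 below at 5 h, 29 and 60 at 6 h, and 40 and 76 at 7 h. With the IL-6 array at 1 h in the baseline, 3 were above at 5 h. Leaving out 1 IL-6 array gave 9 to 13 above and 8 to 15 below at 5 h, 3 to 8 and 12 to 18 at 6 h, and 3 to 9 and 16 to 26 at 7 h.

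No paired analysis was possible because each time and stimulus has 1 array and the labels carry no replicate numbers. With 3 arrays a side at successive hours, a steady trend and a step at 4 h are hard to separate, and signals near the lower end of the range, such as Pck1 and Tpbg, can understate differences.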

Other observations

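Beyond the groups described above, 4 genes without a call had large gaps at single hours or small p-values. The groups overlapped for Cyp26a1 and Dppa3 and did not for Hpgd and Pmepa1. Hpgd, which inactivates prostaglandins, read 8.31, 8.10 and 7.70 with IL-6 and 7.16, 6.36 and 6.12 after HGF, with controls of 8.21 and 8.12. Its difference of -1.49 was among the largest decreases but missed the threshold (adjusted p = 0.0823, limma), and the 3 IL-6 arrays were already in descending order. Cyp26a1, the hydroxylase that clears retinoic acid, read 8.85, 8.55 and 8.55 with IL-6, 8.54 at 5 h, and 9.90 and 9.75 at 6 and 7 h, with controls of 9.47 and 9.67. Dppa3, known from germ cells and early embryos, read 5.64 to 6.13 with IL-6 and 6.05, 7.00 and 7.25 at 5, 6 and 7 h, with controls of 5.85 and 5.70. Pmepa1, a TGF-beta target, read 9.32, 9.10 and 9.27 before and 9.75, 9.88 and 9.77 after HGF, with controls of 9.01 and 8.66 (adjusted p = 0.0560, limma).

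Of 18 genes of glycolysis and its HIF control, 3 were above and 2 below without overlap (16.7% and 11.1%, near the 9.56% and 8.28% of all genes), with a median of -0.09. Pkm, pyruvate kinase of the muscle type, read 9.27, 9.14 and 9.37 before and 9.66, 9.64 and 9.78 after HGF, with controls of 9.14 and 9.52. Hk2, the hexokinase of growing cells, read 7.38, 7.35 and 7.37 before and 7.64, 7.64 and 7.74 after, with controls of 7.06 and 7.37. Neither passed the test (adjusted p = 0.112 and 0.130, limma).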
